A study of Mus musculus with 4 samples.

Results

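Transcripts of 9 genes of Polycomb repressive complex 1 (PRC1) were followed in right ventricles from 4 adult mice. The genes were Ring1, Rnf2, Bmi1, Cbx2, Cbx6, Cbx7, Cbx8, Phc1 and Phc2, taken by their names from a table of 29595 gene rows, and all 9 were found there with reads in every library. Of the hearts, 2 came from Ezh2-deficient mutants (mutant 1 and mutant 3) and 2 from wild types (wild type 1 and wild type 2), numbered as in the labels, all on a mixed C57BL/6 background. The labels name neither the Ezh2 allele nor the cells in which the gene was lost, and give no age beyond adult. The question of the comparison is whether the transcripts of PRC1 differ between ventricles labelled Ezh2-deficient and wild-type ventricles.

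PRC1 is a ubiquitin ligase for histone H2A. Its catalytic core pairs a RING protein (Ring1 or Rnf2, the latter also called Ring1b) with a Pcgf protein, of which Bmi1 is one. In canonical PRC1 this core carries a Cbx protein, whose chromodomain binds the trimethylated histone H3 lysine 27 that PRC2 deposits through Ezh2, and a Phc protein, which can polymerise and compact chromatin. Variant PRC1 carries Rybp or Yaf2 in place of the Cbx protein. Cbx7 is known in stem cells as a subunit that gives way to other Cbx proteins on differentiation, and Bmi1 as a repressor of the Cdkn2a locus.

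The libraries held 18177642 to 23853394 reads, of which the 9 genes took 2144 to 2813 per library. Wild type 1 had 2813 and wild type 2 had 2276 of these reads, mutant 1 had 2366 and mutant 3 had 2144. Levels are CPM (reads of a row relative to all reads of the library, on the usual CPM scale) after scaling between libraries by the trimmed mean of M values (TMM). The libraries were treated with a duplex-specific nuclease, which depletes the most abundant transcripts, so levels of different genes are not proportional to RNA. The row of Ezh2 had 73 and 70 reads in the mutants, against 77 and 67 in the wild types, and so does not check the labels, which do not say which exons were lost. Y-linked genes were read in the mutants and hardly in the wild types (Ddx3y had 754 and 659 reads against 2 and 2), so genotype and sex cannot be told apart in any comparison below. Markers of ventricular muscle summed to 51080 and 56990 CPM in the mutants, against 48170 and 42940 in wild-type hearts. Of these 8 markers, 5 had a log2 fold change above 0 and 3 below 0. Atrial markers summed to 3453 and 3084 CPM in the mutants, against 431 and 178 in wild-type hearts, with all 4 markers higher in both mutants. Most of these sums was Nppa, at 3312 and 2972 CPM in the mutants, against 375.5 and 172.9 in wild-type hearts. The next marker, Myl7, was at 77.4 and 61.8 CPM against 29.6 and 2.72. Fast skeletal muscle markers summed to 274 CPM in mutant 1 and 23.6 to 46.4 in the other libraries. No marker of these 3 lists was at 0, and the part of these cells in the PRC1 values was not tested. In whole tissue, fewer cells of a type and less RNA per cell cannot be told apart.

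None of the 9 PRC1 genes passed the test between mutant and wild-type ventricles. The largest differences were a lower Cbx6 and a higher Bmi1 in the mutants, at 0.707 and 1.40 times the wild-type level, and neither passed after adjustment. By edgeR's quasi-likelihood test 0 of 9 passed an adjusted p of 0.05, against 0.13% of 16128 rows tested, and 0 passed by DESeq2 (1.21% of all rows) or by limma-voom (0.0868%). At an unadjusted p under 0.05, 0 were higher (6.49% of all rows) and 1 was lower (4.38% of all rows). Both mutants lay above both wild types for 2 of 9 genes, against 22.3% of all rows, and below both for 3 of 9, against 22.4%. The shares of PRC1 genes that did not overlap are from so few genes that 1 gene moves them by more than the distance to the background. The median log2 fold change of the 9 was -0.18, with 4 above and 5 below 0, beside 0.0046 over all rows tested. No source says that the 2 hearts of a group were from separate litters, so p-values measure only the spread between these hearts.

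**Figure D1:**
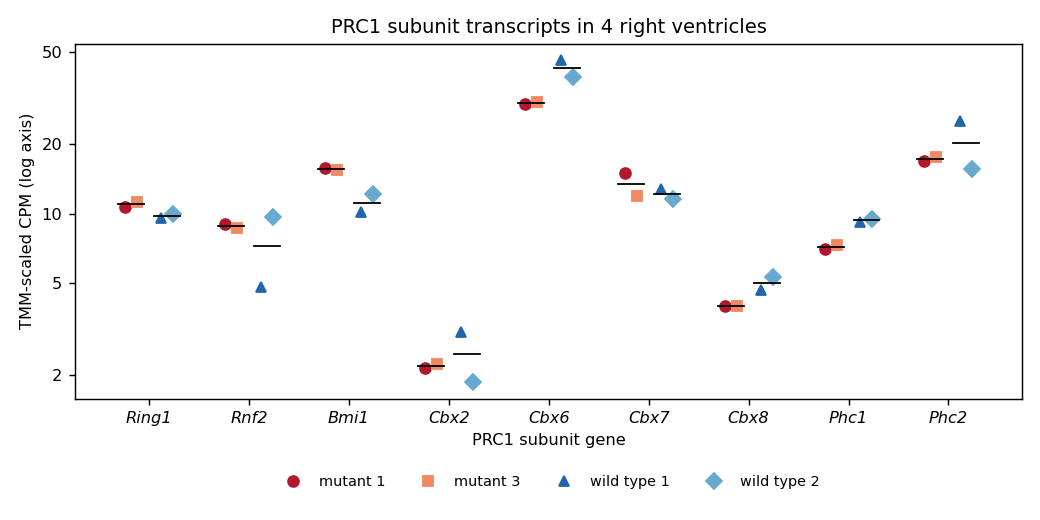
TMM-scaled CPM of the 9 genes (log axis) in each library, with symbols for the 4 libraries and short lines for the mean of each group of 2. The mutants lie close together for every gene but Cbx7, while wild type 1 and wild type 2 lie on opposite sides of the mutants for Rnf2, Cbx2 and Phc2.

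The catalytic RING genes were both read at moderate levels. Ring1 (chromosome 17, 34158029 to 34161588 on mm9, minus strand) was counted with 230 and 222 reads in the mutants, against 214 and 199 in the wild types. This was 10.7 and 11.3 CPM in the mutants, against 9.53 and 10.01 in wild-type hearts. The groups did not overlap, yet the difference was small (log2 fold change 0.17 with a 95% interval of -0.37 to 0.71, edgeR adjusted p = 0.828). Scaled by total reads alone, the value was -0.12, beside a median of -0.28 over all rows.

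Rnf2, the RING paralogue (chromosome 1, 153316536 to 153347953, minus strand), was set apart by a single wild-type heart. It had 194 and 171 reads in the mutants, 108 in wild type 1 and 192 in wild type 2, or 9.05, 8.67, 4.81 and 9.66 CPM. Wild type 1 was below both mutants and wild type 2 above both. The wild types differed 2.01-fold and the mutants 1.04-fold. The log2 fold change was 0.30 (95% interval -0.52 to 1.11, edgeR adjusted p = 0.797). It was 0.88 without wild type 2 and -0.12 without wild type 1, each value resting on a single wild-type heart. In the authors' deposited table, wild type 1 stood at 0.509 times wild type 2 for Rnf2 (p = 9.59e-09) and mutant 1 at 1.25 times mutant 3 (p = 0.0353), each a comparison of single libraries by CPM without TMM scaling.

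Per kilobase of transcript, Ring1 exceeded Rnf2 in all 4 libraries. The ratio of Ring1 to Rnf2 in CPM per kilobase was 1.86 and 2.04 in the mutants, 3.12 in wild type 1 and 1.63 in wild type 2. Rnf2 made up 34.9% and 32.9% of the length-scaled reads of the pair in the mutants, against 24.3% and 38.0% in wild-type hearts. The groups overlapped, and the difference of 2.73 percentage points was smaller than the SD of 9.70 between the wild types.

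Bmi1, a Pcgf subunit that partners the RING protein in canonical PRC1 (chromosome 2, 18598645 to 18608256, plus strand), was the member with the highest mutant-to-wild-type ratio. It had 339 and 303 reads in the mutants, against 228 and 241 in the wild types. In CPM these were 15.8 and 15.4 against 10.2 and 12.1, with both mutants above both wild types. The mean was 15.6 ± 0.321 CPM for the mutants (SD, n = 2), against 11.1 ± 1.40 for the wild types. Their log2 fold change of 0.49 ± 0.23 (SE, 95% interval -0.04 to 1.02) had an edgeR adjusted p of 0.496 and an unadjusted p of 0.0670. It was 0.61 without wild type 2, a fit that rests on a single wild-type heart. After correction of GC content and transcript length it was 0.22 (edgeR adjusted p = 0.683).

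Of the 4 Cbx genes, Cbx6 differed most between the groups. Cbx6 (chromosome 15, 79654328 to 79664763, minus strand) gave 637 and 599 reads in the mutants, against 1035 and 774 in the wild types. Levels were 29.7 and 30.4 CPM in the mutants, against 46.1 and 38.9 in wild-type hearts, and both mutants lay below both wild types. The mean was 30.1 ± 0.459 CPM for the mutants (SD, n = 2), against 42.5 ± 5.05 for the wild types. Their log2 fold change of -0.50 ± 0.21 (SE, 95% interval -0.99 to -0.01) had an unadjusted p of 0.0463 and an edgeR adjusted p of 0.447. Without wild type 2 it was -0.62 and passed (edgeR adjusted p = 0.00984, range over 15 alternatives 0.00984 to 1), and without wild type 1 it was -0.37. With the correction of GC content and length it was -0.26 (adjusted p = 0.474). A further row, Npcd, spans Cbx6 on the same strand (79616781 to 79664763) and held 248, 187, 305 and 232 reads in mutants 1 and 3 and wild types 1 and 2. How reads of their shared part were assigned was not stated.

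Cbx7, which lies near Cbx6 (chromosome 15, 79746237 to 79763076, minus strand), had overlapping groups. It gave 321 and 235 reads in the mutants, against 286 and 229 in the wild types, or 15.0, 11.9, 12.7 and 11.5 CPM. Cbx7 was the only member for which the mutants (1.26-fold) differed more from each other than the wild types (1.10-fold). The log2 fold change was 0.15 (95% interval -0.40 to 0.70, edgeR adjusted p = 0.856), 0.34 without mutant 3 and 0.01 without mutant 1. Scaled by total reads alone it was -0.12, beside a median of -0.28 over all rows.

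Cbx2 and Cbx8, neighbours on chromosome 11, had the fewest reads. Cbx8 (118899750 to 118902227, minus strand) gave 85 and 79 reads in the mutants, against 105 and 106 in the wild types. The mutants, at 3.97 and 4.01 CPM, lay below the wild types, at 4.67 and 5.33 (log2 fold change -0.33, 95% interval -0.98 to 0.33, edgeR adjusted p = 0.708). Cbx2 (118884343 to 118892584, plus strand) gave 46 and 44 reads in the mutants, 69 in wild type 1 and 37 in wild type 2. At 2.15, 2.23, 3.07 and 1.86 CPM, the wild types lay on both sides of the mutants. The log2 fold change of -0.18 (95% interval -1.07 to 0.72, edgeR adjusted p = 0.899) was 0.23 without wild type 1 and -0.49 without wild type 2. At this depth the interval of Cbx2 includes a fall of 1 on the log2 scale and excludes a rise of 1.

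Within a library the mix of Cbx transcripts can be compared without scaling between libraries. Cbx6 made up 45.7% and 50.04% of the length-scaled reads of Cbx2, Cbx6, Cbx7 and Cbx8 in the mutants, against 57.5% and 55.5% in wild-type hearts. Cbx7 made up 39.4% and 33.6% in the mutants, against 27.2% and 28.1% in wild-type hearts. Thus Cbx6 had a lower share and Cbx7 a higher share in both mutants than in both wild types, with mean differences of -8.63 and 8.86 percentage points. The ratio of Cbx6 to Cbx7 in CPM per kilobase was 1.16 and 1.49 in the mutants, against 2.11 and 1.97 in wild-type hearts. Shares of 1 family are not independent, since a lower share of a gene raises the others. A two-sided exact permutation test over the 4 libraries gave p = 0.333 for both shares, the smallest that 2 against 2 allows, and 1 after adjustment over 6 shares. The share of Cbx8 was 9.88% and 10.7% in the mutants, against 9.46% and 12.3% in wild-type hearts, and that of Cbx2 was 4.05% to 5.84%, with overlapping groups for both.

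Of the polyhomeotic genes, Phc1 had groups that did not overlap and Phc2 had groups that did. Phc1 (chromosome 6, 122267749 to 122290233, minus strand) gave 151 and 144 reads in the mutants, against 206 and 189 in the wild types. The levels of 7.05 and 7.30 CPM in the mutants, against 9.17 and 9.51 in wild-type hearts did not overlap, and both groups were tight (1.04-fold within each). The log2 fold change of -0.38 (95% interval -0.95 to 0.19) had an edgeR adjusted p of 0.616. It lay between -0.32 and -0.40 with any 1 library left out, the narrowest such range of the members, and was -0.24 after the correction of GC content and length.

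Phc2 (chromosome 4, 128365982 to 128430118, plus strand) gave 363 and 347 reads in the mutants, 562 in wild type 1 and 309 in wild type 2. The mutants, at 16.9 and 17.6 CPM, lay between wild type 1 at 25.0 and wild type 2 at 15.6. The log2 fold change was -0.23 (95% interval -0.86 to 0.40, edgeR adjusted p = 0.792). It was 0.15 without wild type 1 and -0.54 without wild type 2, each value resting on a single wild-type heart. Phc2 made up 72.0% and 72.0% of the length-scaled reads of Phc1 and Phc2 in the mutants, against 74.4% and 63.6% in wild-type hearts.

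The Phc2 row and a row for its short transcript held nearly the same number of reads. That second row, Edr2 p36, starts 38843 bases into the Phc2 row (chromosome 4, 128404825 to 128430118 on mm9) and shares its end. It held 356 reads beside 363 in the Phc2 row in mutant 1, 341 beside 347 in mutant 3, 552 beside 562 in wild type 1 and 301 beside 309 in wild type 2. Relative to the Phc2 row these were 98.1%, 98.3%, 98.2% and 97.4%, so the relation was alike in the 4 libraries. The counting rule is unknown. Of 279 pairs of rows with equal coordinates and at least 20 reads, 201 had totals within 5% of each other. Of 481 pairs with the same end and different starts, the row that starts later had more reads in 70, so the reads of a shorter row are not always a subset of those of a longer one. In the GENCODE M21 annotation of a later build (GRCm38), the short coding transcript has 2535 exonic bases and 969 coding bases. A long one has 3885 and 2550, with 42.1% of its exonic bases outside the short transcript, and 286 bases of the short one lie outside the long one. Which transcript the reads came from was not tested.

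The starts of these transcripts are shown because these rows differ in where they start. RefSeq windows on GRCm38.p6 cover the 250 bases before 3 starts of Phc2, and the later of them are 38833 bases apart, close to the distance between the deposited rows. The window of a long transcript (chr4:128688488-128688737, plus strand) and that of the start of the short transcript (chr4:128727321-128727570, plus strand) read as follows, with each CG dinucleotide in capitals.
Phc2 long: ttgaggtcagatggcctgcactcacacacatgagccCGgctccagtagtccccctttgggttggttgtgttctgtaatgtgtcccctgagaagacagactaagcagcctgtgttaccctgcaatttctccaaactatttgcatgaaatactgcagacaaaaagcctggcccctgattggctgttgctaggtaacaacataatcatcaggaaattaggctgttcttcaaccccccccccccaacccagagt
Phc2 short: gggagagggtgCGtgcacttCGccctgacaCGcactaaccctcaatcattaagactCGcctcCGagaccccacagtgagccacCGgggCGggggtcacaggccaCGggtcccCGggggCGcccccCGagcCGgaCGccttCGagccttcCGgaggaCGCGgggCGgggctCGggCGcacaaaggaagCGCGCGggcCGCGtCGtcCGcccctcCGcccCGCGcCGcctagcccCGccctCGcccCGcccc
The short start is preceded by 34 CG and the long one by 1. CG reads the same on both strands. At least 34 CG were held by 3.53% of 32851 RefSeq windows of this length, and at least 1 by 92.1%, with a median of 6. The first start, farther upstream, had 13. Of the 9 members, 8 had a window in the table. Outside Phc2, the windows held 30 CG for Ring1, 23 for Cbx7, 22 for Cbx8, 21 for Bmi1, 20 for Cbx6, 20 for Rnf2 and 8 for Phc1. These counts describe the reference sequence and were not measured in the hearts.

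Scaled for length, the members spanned a wide range of level, with Cbx2 lowest and the top of the order dependent on the length used for Phc2. In CPM per kilobase of the longest coding transcript, over the 4 libraries, Cbx6 was at 6.25 ± 1.34 (SD, n = 4 here and below, both groups together), Ring1 at 5.10 ± 0.376 and Phc2 at 4.75 ± 1.08. Divided by the 2535 bases of its short transcript, Phc2 was at 7.41 ± 1.68, a value 1.56 times as high, and lay above Cbx6 in 3 of 4 libraries. Cbx7 followed at 3.77 ± 0.456, Bmi1 at 3.72 ± 0.752 and Rnf2 at 2.51 ± 0.686. Phc1 was at 1.96 ± 0.2997, Cbx8 at 1.26 ± 0.181 and Cbx2 at 0.612 ± 0.137. With the longest transcript of each gene, the ranges over the 4 libraries overlapped for each pair of neighbours from Cbx6 down to Phc1. The order of these neighbours is not resolved by their ranges. Within libraries, Bmi1 exceeded Rnf2 in all 4, and the other pairs kept this order in 2 or 3. Phc1 and Cbx8, and Cbx8 and Cbx2, were apart in all 4 libraries. Bmi1 exceeded its close paralogue Pcgf2 in CPM per kilobase in all 4 libraries, by 2.82 and 2.06 times in the mutants, against 2.25 and 2.06 times in wild-type hearts. These orders carry the unequal effect of the nuclease on abundant transcripts.

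**Figure D2:**
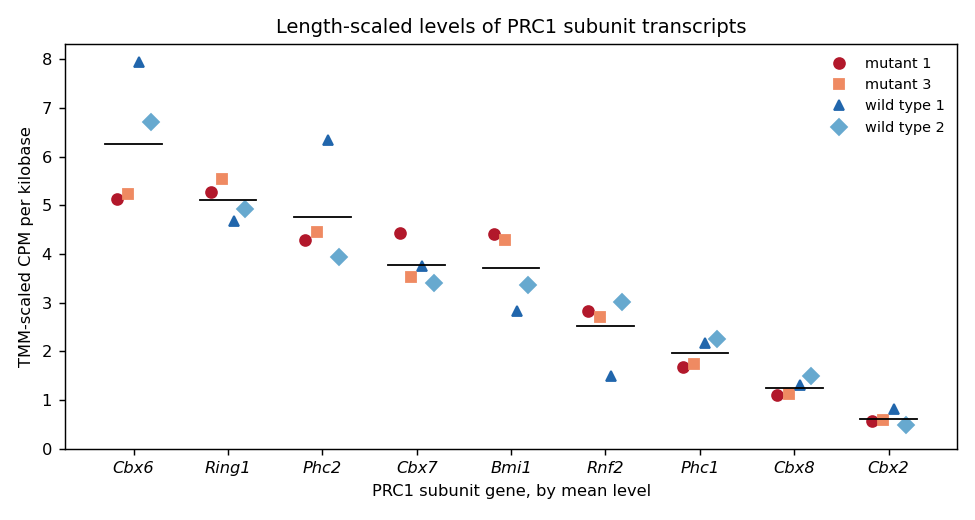
TMM-scaled CPM per kilobase of the longest coding transcript for each member, ordered by the mean over 4 libraries (line), with 1 symbol per library. Cbx8 and Cbx2 lie below the other members in every library, while the ranges of neighbours from Cbx6 to Phc1 overlap.

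In scaled CPM, the wild types differed more from each other than the mutants did for every member but Cbx7, though hardly so for Ring1 and Phc1. Scaled CPM differed less than 1.05-fold between the mutants for 8 of 9 members. Between the wild types it differed 2.01-fold for Rnf2, 1.65-fold for Cbx2 and 1.61-fold for Phc2. The wild types also differed more over all rows tested, so this was not particular to PRC1. There the chi-square per degree of freedom was 31.8 between the mutants and 62.7 between the wild types. In the authors' deposited table, which compares single libraries by CPM without TMM scaling, the p of wild type 1 against wild type 2 was 0.00932 for Cbx2, 5.86e-05 for Cbx6 and 7.98e-13 for Phc2. There the p of mutant 1 against mutant 3 was 1.92e-06 for Cbx7, 0.00618 for Cbx6 and 0.00892 for Bmi1. The difference between the wild types went with the GC content of the transcripts. Over 13127 rows matched to an annotated transcript (81.4% of rows tested), the log2 ratio of wild type 1 to wild type 2 had a Spearman rho of 0.543 with GC content. Over the 9 members rho was 0.683, all points sharing the same pair of libraries. For the log2 fold change of mutant over wild type, rho with GC content was -0.154 over the 13127 rows. Rnf2, with 39.5% GC, was lowest in wild type 1 relative to wild type 2, at a log2 ratio of -0.99. Bmi1, with 40.2% GC, was at -0.25, and the GC-rich Phc2 (60.4%) and Cbx2 (57.5%) were at 0.68 and 0.69. Ring1 (60.7%), Cbx8 (54.9%) and Phc1 (53.1%) were at -0.07, -0.19 and -0.05, near or below 0 despite their GC content.

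**Figure D3:**
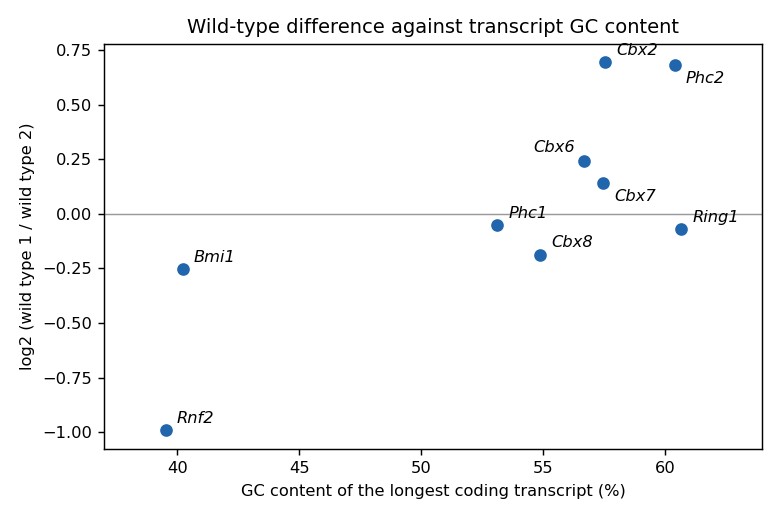
Log2 ratio of wild type 1 to wild type 2 in scaled CPM (vertical axis) against the GC content of the longest coding transcript in percent (horizontal axis), 1 point per member. Rnf2 lies lowest at -0.99 with 39.5% GC, and Cbx2 and Phc2 lie highest at 0.69 and 0.68.

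Corrected for GC content and transcript length in each library, the median of the members lay nearer to 0. This median log2 fold change was -0.01 with the correction and -0.16 on the same rows without it, and 0 of 9 passed in either fit (0.609% of all rows did with the correction and 0.107% without it). The smallest edgeR adjusted p of a member was 0.474 with the correction. Rnf2 was at 0.06, Phc2 at -0.04, Cbx2 at -0.01, Bmi1 at 0.22 and Cbx6 at -0.26. Cbx7 was at 0.27 with the correction, above its value of 0.16 on the same rows without it.

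**Figure D4:**
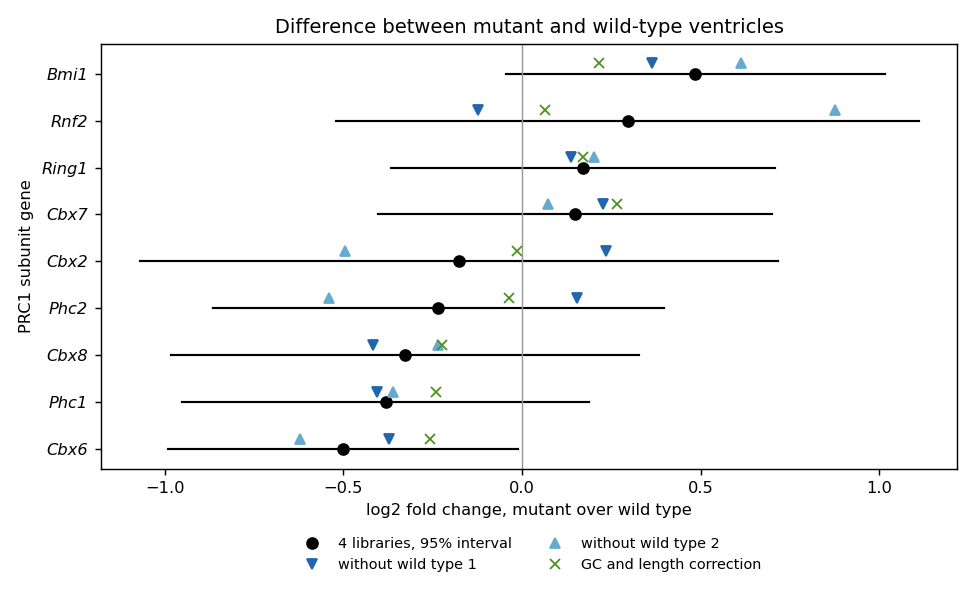
Log2 fold change of mutant over wild type for each member (black points, 4 libraries, with 95% intervals from edgeR), beside the value without wild type 1, without wild type 2 and with the correction of GC content and length. The interval of Cbx6 alone ends below 0, at -0.01 before adjustment, and Rnf2, Cbx2 and Phc2 change sign when wild type 1 is left out.

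Without wild type 2, 4 of the 9 genes passed (Bmi1 and Rnf2 higher, Cbx6 and Phc2 lower), while 3675 of all rows (22%) passed in that fit against 21 with all libraries. Without wild type 1, 0 of 9 passed, while 2046 of all rows (12.2%) did. These fits rest on a single wild-type heart, assumed to vary as the mutants do. In the authors' deposited table, Cbx6, Cbx8 and Phc1 were lower in each mutant than in each wild type, with a p under 0.05 in all 4 pairs. This held for 20.1% of the 16128 rows, and the reverse for 3.03% of them and 0 of 9 members. Those ratios are of CPM without TMM scaling. With scaling by total reads, the median was -0.28 over all rows and -0.47 over the members.

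None of the other canonical PRC1 genes reported here passed the test. Of 4 listed and tested (Phc3, Pcgf2, Scmh1 and Scml2), 0 passed by edgeR (0.13% of all rows) or DESeq2 (1.21%). By edgeR, 0 had an unadjusted p under 0.05 (6.49% of all rows were higher and 4.38% lower). Both mutants lay below both wild types for 2 (22.4% of all rows) and above both for 0 (22.3%). Of the log2 fold changes, 3 were below 0, and the median was -0.25, beside 0.0046 over all rows tested. Scmh1, a relative of the Drosophila Polycomb protein Scm, had 456 and 484 reads in the mutants, 689 in wild type 1 and 504 in wild type 2. At 21.3 and 24.5 against 30.7 and 25.4 CPM, both mutants were below both wild types (log2 fold change -0.29, edgeR adjusted p = 0.675). Scml2, an X-linked gene, had 7 and 6 reads in the mutants, 10 in wild type 1 and 23 in wild type 2 (log2 fold change -1.32, edgeR adjusted p = 0.558).

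Variant PRC1 genes went both ways. Of 20 tested, 0 passed by edgeR (0.13% of all rows) or DESeq2 (1.21%). At an unadjusted p under 0.05 by edgeR, 1 was higher (6.49% of all rows) and 2 were lower (4.38%). Both mutants lay above both wild types for 2 of 20 genes, against 22.3% of all rows, and below both for 7, against 22.4%. Their median log2 fold change was -0.06, beside 0.0046 over all rows tested. Auts2, which joins a variant complex in the nervous system, had 312 and 392 reads in the mutants, against 772 and 489 in wild-type hearts (log2 fold change -0.78, edgeR adjusted p = 0.361). Pcgf1, the Pcgf protein of the complex with Kdm2b and Bcor, had 92 and 71 reads against 47 and 47, with both mutants above both wild types (0.82, edgeR adjusted p = 0.411). For the Pcgf paralogues of variant complexes, levels in CPM per kilobase were 3.36 ± 1.13 for Pcgf1, 2.67 ± 0.643 for Pcgf3 (SD, n = 4), 2.50 ± 0.406 for Pcgf5 and 0.851 ± 0.167 for Pcgf6, beside 3.72 ± 0.752 for Bmi1. In mutant 1, Pcgf1 at 4.68 lay above Bmi1 at 4.40.

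Genes that remove or oppose H2A ubiquitin were likewise not called. Of 13 tested members (Bap1, its Asxl and Foxk partners, Usp16, Mysm1 and others), 0 passed by edgeR (0.13% of all rows) or DESeq2 (1.21%). At an unadjusted p under 0.05 by edgeR, 0 were higher (6.49% of all rows) and 1 was lower (4.38%). Both mutants lay above both wild types for 0 of 13 genes, against 22.3% of all rows, and below both for 5, against 22.4%. Of the log2 fold changes, 10 were below 0, with Asxl2 among them at -0.0002. The median was -0.14, beside 0.0046 over all rows tested. Foxk2, a forkhead factor that recruits Bap1, was at 11.2 and 13.2 CPM in the mutants, against 18.4 and 19.7 in wild-type hearts (log2 fold change -0.64, edgeR adjusted p = 0.362). Asxl1, a cofactor of Bap1, was at 22.2 and 18.6 against 29.2 and 28.4 CPM (-0.49, edgeR adjusted p = 0.467). Cbx1, Cbx3 and Cbx5, which encode the heterochromatin proteins that share the chromodomain but bind methylated lysine 9 of histone H3, had log2 fold changes of 0.19, 0.19 and -0.17, and 0 of 3 passed by edgeR or DESeq2, with 0 at an unadjusted p under 0.05. In CPM per kilobase they stood at 7.95 ± 1.21, 11.1 ± 4.43 and 7.61 ± 1.13 (SD, n = 4).

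By pattern over the 4 libraries, each member was matched to the most alike of 48 other genes of these lists, by the root mean square difference of centred log2 CPM. Cbx2 and Phc2 were most alike to each other (0.035), and Cbx8 was most like Phc1 (0.058), which was itself most like Rybp (0.039). Rnf2 was most like Usp16 (0.13) and Bmi1 most like Cbx1 (0.16), genes that were also lowest in wild type 1. Cbx6 was most like Hcfc1 (0.070), and Ring1 and Cbx7 were most like Skp1a (0.072 and 0.12). With 4 libraries such likeness is a description.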

How the data were processed

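RNA sequencing of 4 right ventricles was analysed. The submitters' processing notes name TopHat 1.2.0, Cufflinks and the build mm9. Aligner settings, counting rule, strand use and annotation were not stated in any source used. The deposited table gives whole-number read counts per gene row and library, per the file headers, and these counts were analysed. Its other columns hold the authors' CPM (unscaled), a ratio by the authors for every 2 libraries, and the authors' p-value for that ratio, whose test is unknown. The CPM were not used, and the ratios and p-values were only described. Per the labels' protocols, polyadenylated RNA libraries were digested with a duplex-specific nuclease.

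Counts of all rows kept by filterByExpr (16128 of 29595) entered the quasi-likelihood test of edgeR 4.0.16 (under R 4.3.3) with TMM scaling, no covariate and Benjamini-Hochberg adjustment over all rows. Tests are two-sided, and an adjusted p under 0.05 is a call. SE and intervals come from the quasi-likelihood F statistic. Alternatives were DESeq2 1.42.0, limma-voom (limma 3.58.1), other scalings, filters and rows, and leaving out each library. After the data were seen, 1 row per locus, a loess correction of GC content and transcript length (span 0.3) with the same rows uncorrected, and the short Phc2 length were added. Transcript lengths and GC content are from GENCODE M21, a later build, by symbol. Starts are printed counted from 1 on mm9 unless GRCm38 is named.

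The members and gene lists were chosen with earlier results of these data known. Named genes outside the members are, per list, called genes or otherwise the 2 of smallest p, with paralogues, the HP1 genes, the named partners of Pcgf1 and the closest pattern. The table names Kdm2b as Fbxl10. Of the variant PRC1 list, Fbrs and Fbrsl1 were not analysed here. Asxl3, at 0 to 2 reads, was not tested. 1 gene of the canonical list is not reported here, and the counts of that list leave it out.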

Additional observations from a re-analysis of the deposited data

How the results depend on the processing

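Over 15 alternatives, no PRC1 member was called except without wild type 2. Leaving out each library in turn gave 0 to 4 calls among the 9 members, 0 in every case among the other canonical genes, 0 to 3 among the variant genes and 0 to 7 among the H2A deubiquitination genes, where the main counts were 0. The highest counts came without wild type 2, where 22% of all rows passed. Without wild type 1 these counts were 0, 0, 1 and 2, with 12.2% of all rows. The median of the members ranged from -0.24 to 0.14 with a library left out (-0.10 without mutant 1, 0.14 without wild type 1), and was -0.47 with scaling by total reads and -0.01 with the GC and length correction (-0.012 to 3 decimals). With total reads, Ring1 and Cbx7 turned to -0.12 and -0.12, where the median over all rows was -0.28. With a library left out, the log2 fold change ranged from -0.12 to 0.88 for Rnf2, -0.49 to 0.23 for Cbx2 and -0.54 to 0.15 for Phc2, each turning sign without wild type 1. Mutant minus wild type shares, in percentage points, ranged from -0.53 to 1.27 for Cbx2, -10.8 to -6.44 for Cbx6, 5.97 to 11.8 for Cbx7, -2.03 to 0.84 for Cbx8, -4.13 to 9.60 for Rnf2 and -2.46 to 8.41 for Phc2. A planned recount of the Cbx shares with a further family member was not run. The cause of these moves was not tested. No paired analysis was possible because the groups share only the replicate number 1. With 37 to 106 reads per library, Cbx2 and Cbx8 have wide intervals.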
